A study of Homo sapiens with 12 samples.

Results

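The genes described here encode the secreted WNT ligands, their Frizzled (FZD) receptors, the secreted DKK and SFRP antagonists (FRZB included) and the R-spondins (RSPO). They were taken by name from a list of 42 genes, all of which were found by symbol among 20037 protein-coding genes of the RefSeq annotation of hg38. There were 19 WNT ligands, 10 FZD receptors, 9 antagonists and 4 R-spondins. The study mapped 3 chromatin features by ChIP-seq (immunoprecipitation of chromatin followed by sequencing) in H1, an established human embryonic stem cell line grown in mTESR1. They were YTHDF1, a reader of m6A on RNA, RNF2, the E3 ubiquitin ligase of Polycomb group complex PRC1, and H2AK119ub, the ubiquitin mark on histone H2A that this ligase writes. Untreated wild-type H1 cells gave 2 replicates each of YTHDF1, RNF2, H2AK119ub and input, and H1 cells treated with a YTHDF1 shRNA gave 2 replicates each of YTHDF1 and input. The labels name no control shRNA.

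The authors had merged the replicates of each antibody into 1 list of peaks, so every value below comes from a single merged list, with no spread between replicates and no test. The lists held 44498 wild-type YTHDF1 peaks, 29310 RNF2 peaks, 43331 H2AK119ub islands and 226 knockdown YTHDF1 peaks, and their sequencing depth is unknown. A peak was assigned to a gene when it overlapped the gene body, or the 2 kb on either side of it, by at least 1 bp. This stretch is called the window of the gene. Peak lists measure no expression, so the cell type could not be checked against the expression of its markers, and nothing here says whether a WNT gene was transcribed.

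WNT proteins are lipid-modified ligands that bind Frizzled receptors together with the co-receptors LRP5 and LRP6, which stabilises beta-catenin in the canonical branch of the pathway. DKK1 blocks LRP5 and LRP6, SFRP proteins bind WNT ligands outside the cell, and R-spondins raise the amount of receptor on the cell surface, mainly through LGR receptors. In early embryos WNT signals set up the primitive streak and pattern the body axis, and many genes of the families are known Polycomb targets in pluripotent cells.

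All members carried both Polycomb features. An RNF2 peak lay over the window of 42 of 42 members, against 71.7% of all coding genes, and an H2AK119ub island over 42 of 42, against 79.0%. A wild-type YTHDF1 peak lay over 24 of 42 members (57.1%), close to the 54.1% of all coding genes. All 24 therefore had the 3 wild-type marks, beside 45.2% of coding genes. No member carried a knockdown YTHDF1 peak, beside 0.843% of coding genes. The median member was as long as the median coding gene (24.0 kb against 24.1 kb), but the classes differed in length, with medians of 29.3 kb for ligands, 5.74 kb for receptors, 17.3 kb for antagonists and 62.3 kb for R-spondins.

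**Figure D1:**
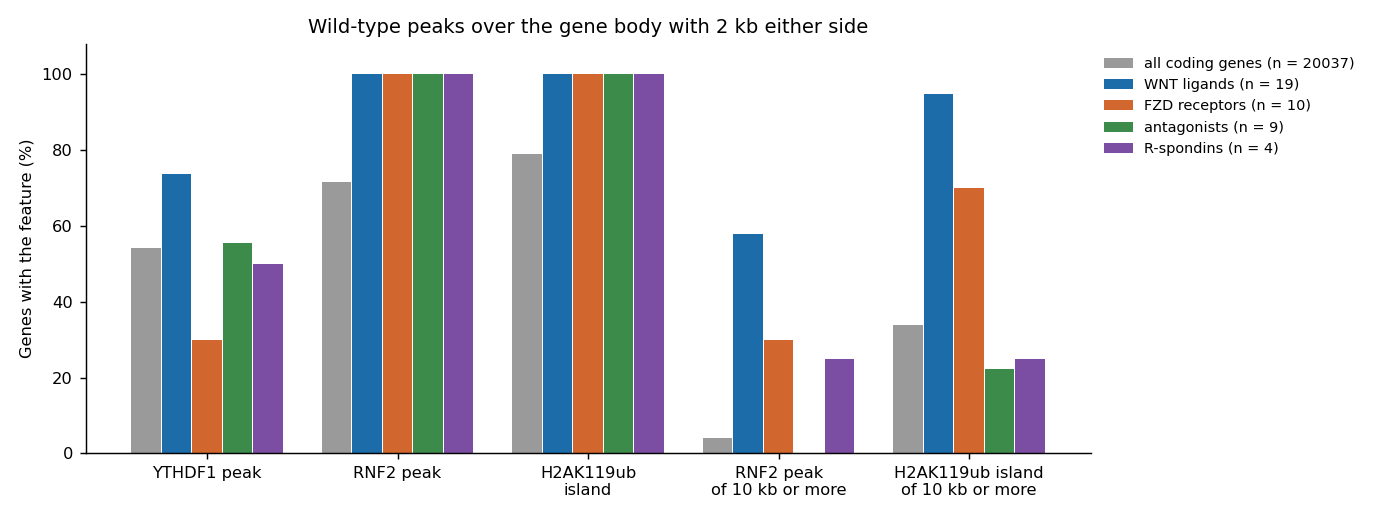
Share of genes (%) with each wild-type feature over the gene body and 2 kb on either side, for all 20037 coding genes and for each class of members. RNF2 and H2AK119ub stand at 100% in all 4 classes, YTHDF1 runs from 30.0% of FZD receptors to 73.7% of WNT ligands, and no antagonist had an RNF2 peak of 10 kb or more.

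The classes differed in the width of their RNF2 peaks. An RNF2 peak of 10 kb or more lay over 15 members, beside 3.97% of all coding genes. They were 11 of 19 ligands (57.9%), 3 of 10 receptors (30.0%), 1 of 4 R-spondins and 0 of 9 antagonists. The median fold enrichment of the strongest RNF2 peak, the authors' own value for the peak, was 17.9 over the ligands, 16.6 over the receptors, 13.7 over the R-spondins and 7.10 over the antagonists. Over the coding genes with RNF2 it was 4.99. In 37 of 42 members the strongest peak lay above that coding median, and in 40 of 42 the widest RNF2 peak exceeded the coding median of 2.02 kb. The share of the window under RNF2 depends on gene length as well as on peak width, since a peak fills more of a short window. Its median was 60.4% over the receptors, 25.2% over the ligands, 15.1% over the antagonists and 5.29% over the R-spondins. Over all coding genes it was 3.07%. So by peak width the ligands ranked first, and by covered share of the window the short receptor genes did.

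Among the ligands, the neighbours WNT1 and WNT10B stood highest. WNT1 (chromosome 12, 48978322 to 48982620), a ligand known for patterning of the midbrain, and WNT10B (48965340 to 48971735), a ligand of the canonical branch, lay 6.59 kb apart under 1 RNF2 peak of 46.0 kb and 67.3-fold. Of the coding genes with RNF2, 1.54% had a peak of higher fold. An H2AK119ub island of 53.0 kb lay across the same stretch. WNT6 (chromosome 2, 218859805 to 218874233) and WNT10A (218874116 to 218893928) overlap by 118 bp and lay under 1 RNF2 peak of 51.7 kb and 42.9-fold, within an island of 64.4 kb. The genes of each pair share their peaks and are not separate observations.

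The other neighbouring ligand genes had separate RNF2 peaks. WNT3 (chromosome 17, 46762506 to 46818692), which is needed for the primitive streak, and WNT9B (46833189 to 46886738), known for its part in kidney development, lie 14.5 kb apart. They shared an H2AK119ub island of 32.4 kb but no RNF2 peak. WNT3 had 3 RNF2 peaks of at most 7.34-fold over 21.7% of its window, and WNT9B had 2 of at most 4.57-fold over 7.37%. Islands of H2AK119ub covered 89.5% and 64.7% of these windows. The RefSeq span of LRRC37A2 also runs across both genes, so that these peaks fall within that gene too. WNT9A (chromosome 1, 227918656 to 227947932) and WNT3A (228006998 to 228061271), 59.1 kb apart, shared no peak. WNT3A, a canonical ligand, had 6 RNF2 peaks, the most of any member, the strongest at 23.8-fold over its start. WNT9A had 1 of 5.61-fold and 3.19 kb.

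**Figure D2:**
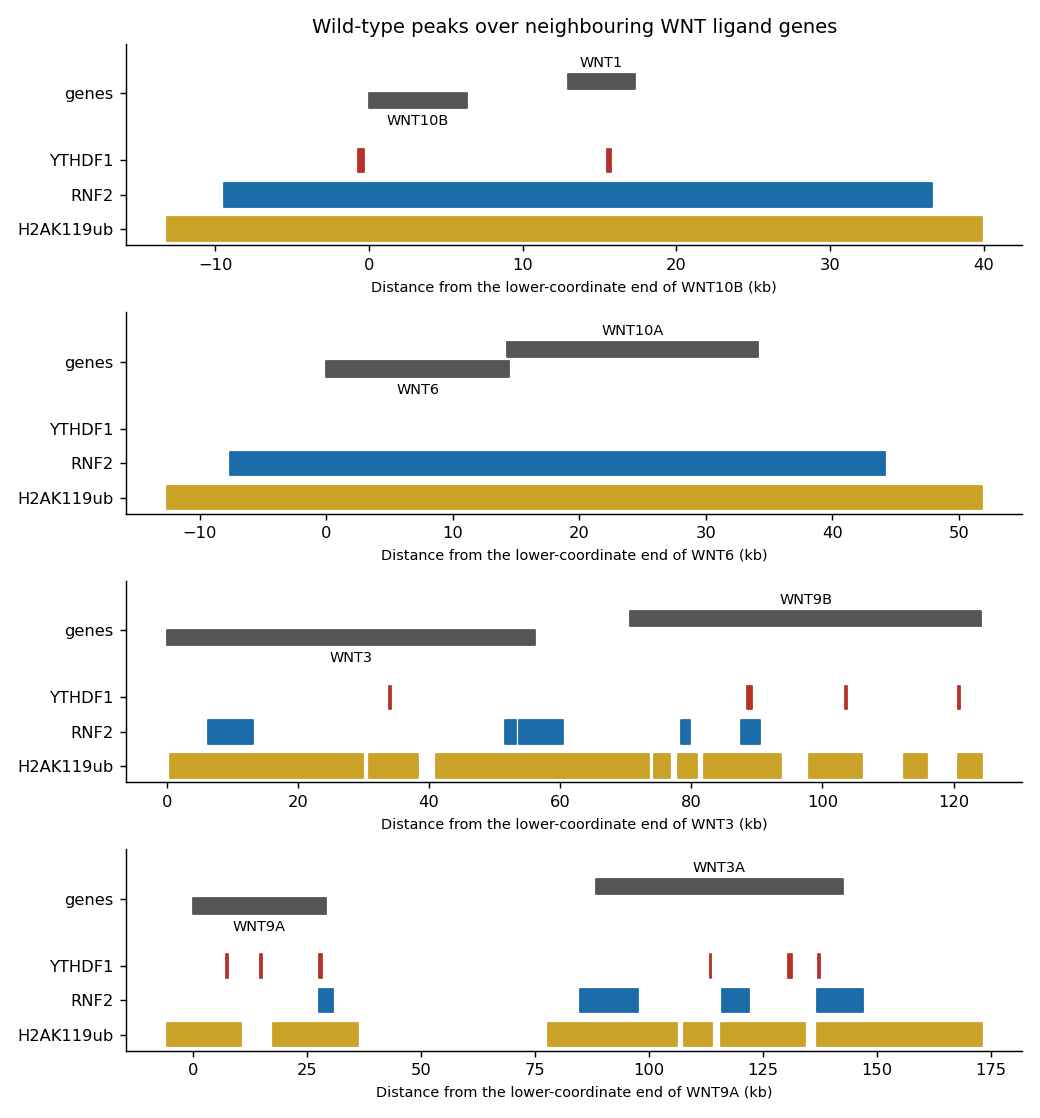
Wild-type peaks over the windows of 4 pairs of neighbouring WNT ligand genes, as distance in kb from the lower-coordinate end of the first gene of each pair. Grey bars are genes and coloured bars are peaks. Peaks that touch neither window are not drawn. A single RNF2 peak spans WNT10B with WNT1 (46.0 kb) and WNT6 with WNT10A (51.7 kb), while WNT3, WNT9B, WNT9A and WNT3A have separate, shorter peaks.

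The other ligands ran from 24.3-fold at WNT5A to 4.35-fold at WNT4. WNT5A, a ligand of the non-canonical branch known for tissue outgrowth, had a 24.3-fold RNF2 peak of 22.8 kb over 53.3% of its window with a second, weak peak. WNT2 (21.8-fold, 11.3 kb), WNT2B (20.1-fold, 14.8 kb), WNT5B (18.8-fold, 9.54 kb), WNT11 (17.9-fold, 11.0 kb) and WNT7B (16.4-fold, 11.3 kb) formed a middle group. WNT8A, a ligand of the early embryo, had 11.1-fold over 11.7 kb. WNT7A (8.95-fold, 4.46 kb), WNT16 (6.31-fold, 3.52 kb), WNT8B (5.55-fold, 2.58 kb) and WNT4 (4.35-fold, 2.2 kb) had narrow peaks. WNT4, which is known for kidney and gonad development, and WNT9B were the only ligands below the coding median of RNF2 fold.

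Among the receptors, FZD2 (chromosome 17, 44557484 to 44561262) had the strongest RNF2 peak, at 45.8-fold over 30.4 kb. FZD1 (chromosome 7, 91264433 to 91271326) followed at 35.0-fold over 13.6 kb and FZD10 (chromosome 12, 130162464 to 130165740) at 29.6-fold over 19.8 kb. The windows of FZD2 and FZD10 lay wholly under RNF2, as did those of WNT1, WNT10B, WNT6 and WNT10A. These made 6 of 42 members, beside 1.55% of coding genes. FZD9 (22.9-fold), FZD8 (18.4-fold) and FZD4 (14.8-fold) had narrower peaks of 4.19, 8.67 and 3.29 kb. FZD5 (5.85-fold), FZD6 (5.83-fold), FZD3 (5.63-fold) and FZD7 (4.58-fold) made a low group. The low group held the longest receptor genes, FZD3 (80.0 kb) and FZD6 (34.4 kb), with RNF2 over 5.71% and 4.30% of their windows. It also held the short FZD5 (7.31 kb) and FZD7 (4.59 kb), with RNF2 over 54.1% and 54.8%. The part of gene length in RNF2 fold was not tested.

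The antagonists had the weakest RNF2 peaks of the 4 classes. SFRP1, which binds WNT ligands, was highest at 15.8-fold over 9.49 kb, and DKK1, an inhibitor of LRP5 and LRP6 needed for head formation, came next at 10.4-fold over 7.41 kb. DKK2 (8.23-fold), SFRP5 (7.27-fold), SFRP4 (7.10-fold), SFRP2 (6.82-fold) and FRZB (5.41-fold) lay between 2.23 and 6.03 kb in width. DKK3, the divergent member of its family, had the weakest RNF2 peak of all 42 members at 3.0-fold and a −log10 q of 6.12, and 94.1% of the coding genes with RNF2 had a stronger one. DKK4 (chromosome 8, 42374063 to 42391322) had a peak of 0.870 kb and 3.86-fold at 42391439 to 42392308. It lay in the flank outside DKK4 and over the neighbouring gene VDAC3, so no RNF2 peak touched the body of DKK4 itself. The R-spondins RSPO3 (14.8-fold), RSPO2 (13.8-fold) and RSPO1 (13.6-fold) were alike in RNF2 fold, with widths of 5.86, 7.15 and 11.0 kb, and RSPO4 was lower at 6.38-fold over 2.13 kb.

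**Figure D3:**
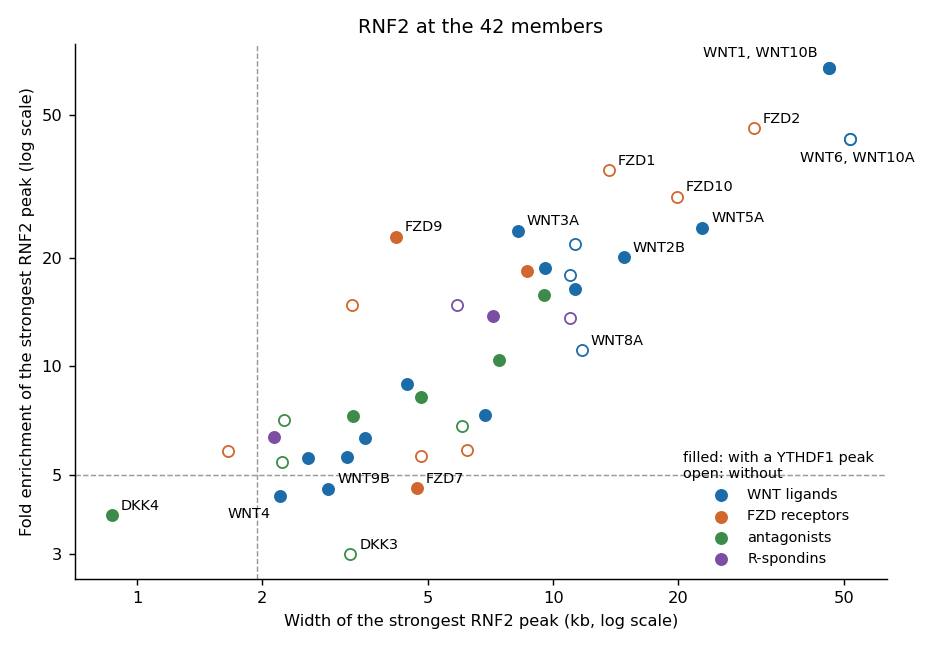
Fold enrichment against width (kb) of the strongest RNF2 peak over each of the 42 members, both on log scales. Filled points have a wild-type YTHDF1 peak over the window and open points have none. Dashed lines mark the medians over coding genes with RNF2 (4.99-fold and 1.94 kb). WNT1 with WNT10B and WNT6 with WNT10A share a point each, since they share a peak. DKK3 is lowest at 3.0-fold.

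H2AK119ub followed the order of classes of RNF2 in intervals of 10 kb or more and in window cover, but reached farther than RNF2. By median of the widest interval the orders differed. For RNF2 it was 11.0 kb over ligands, 6.51 over R-spondins, 5.50 over receptors and 3.31 over antagonists. For H2AK119ub it was 24.6, 6.20, 13.5 and 7.60 kb over the same classes. An island of 10 kb or more lay over 28 of 42 members, beside 34.0% of coding genes. These were 18 of 19 ligands, 7 of 10 receptors, 2 of 9 antagonists and 1 of 4 R-spondins. The median share of the window under H2AK119ub was 96.8% over receptors, 81.2% over ligands, 32.7% over antagonists and 19.5% over R-spondins, against 15.3% over all coding genes. In 32 of 42 members H2AK119ub covered more of the window than RNF2 and in 6 both covered all of it. The exceptions were FZD1 (76.8% against 97.8% under RNF2), DKK2, RSPO2 and RSPO3. Coding genes as a whole differed in the same direction, with median covers of 3.07% under RNF2 and 15.3% under H2AK119ub. The share of coding genes with more H2AK119ub than RNF2 cover was not counted, so this is not shown to be particular to the members. The lists came from intervals of different kinds, islands in steps of 200 bp against narrow peaks, so widths in one list cannot be set against widths in the other as amounts of mark.

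Some members had RNF2 over a much smaller share of the window than H2AK119ub. WNT4 had RNF2 over 7.38% of its window and H2AK119ub over 81.2%, in 4 islands of which the longest was 15.0 kb. WNT9A had 9.57% and 79.0%, and WNT9B had 7.37% and 64.7% in 7 islands, the most of any member. SFRP5 lay wholly under an island of 18.0 kb with RNF2 over 35.8%. FZD3, FZD6, DKK2, DKK4, FRZB, RSPO2 and RSPO3, by contrast, had H2AK119ub over 16.2% of the window or less, and RNF2 over 6.11% or less. A low share did not mean a low fold, since RSPO2 (184 kb) and RSPO3 (80.8 kb) had RNF2 peaks of 13.8-fold and 14.8-fold. WNT16 was the only ligand whose longest island, at 4.20 kb, stayed under 10 kb. The authors' island score, of unstated scale and capped at 1000, reached the cap at 18 of 19 ligands, 7 of 10 receptors, 4 of 9 antagonists and 2 of 4 R-spondins.

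**Figure D4:**
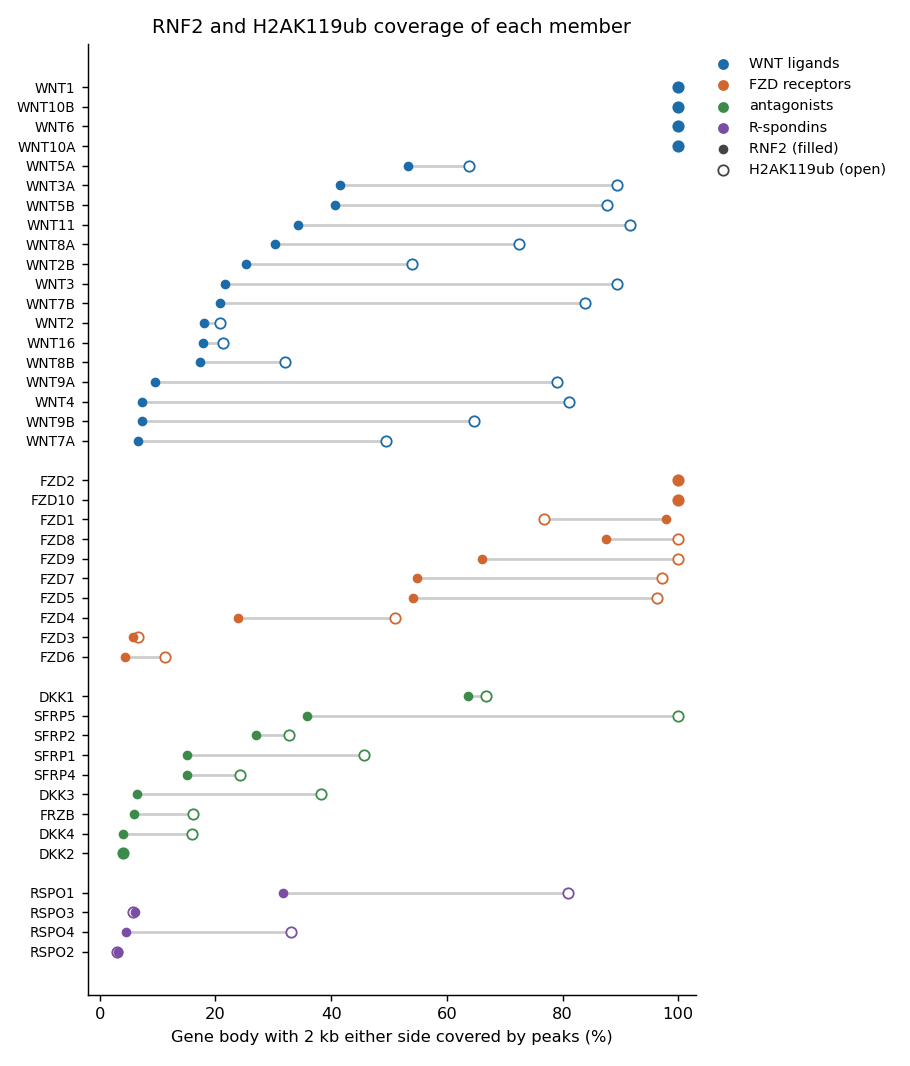
Share of the window of each member (%) covered by RNF2 (filled) and H2AK119ub (open), by class and in order of RNF2 coverage. WNT1, WNT10B, WNT6, WNT10A, FZD2 and FZD10 are covered wholly by both, and in FZD1, DKK2, RSPO2 and RSPO3 the RNF2 share is the higher.

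YTHDF1 was distributed differently from the Polycomb features. It lay over 14 of 19 ligands (73.7%), 3 of 10 receptors (30.0%), 5 of 9 antagonists (55.6%) and 2 of 4 R-spondins, and the ligands are longer than the receptors. Per length, there were 3.78 different YTHDF1 peaks per 100 kb of ligand windows, 1.53 per 100 kb of receptor windows, 1.86 per 100 kb of antagonist windows and 0.861 per 100 kb of R-spondin windows, against 1.82 over all coding genes. Within 2 kb of the gene start alone, for the 29 members whose start is given in the RefSeq promoter table, the shares lay closer together: 6 of 16 ligands (37.5%), 2 of 5 receptors, 2 of 5 antagonists and 1 of 3 R-spondins had a peak, beside 22.7% of coding genes. These shares rest on fewer genes than those over whole windows, and the differences between classes were not tested in either.

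The 39 different YTHDF1 peaks over members were weak. Their fold enrichment ran from 2.68 to 3.78 with a median of 2.87, against a median of 2.91 over the 24050 YTHDF1 peaks in coding-gene windows. Their −log10 q ran from 1.55 to 4.13, where the lowest value in the list is 1.502. Of the 39 peaks, 10 had the same rounded values of 2.81-fold and 1.58, and 7 had 2.95-fold and 1.87, so these peaks cannot be ranked among themselves by strength. A −log10 q of 2 or more was reached by 11 of the 39 (28.2%), against 39.4% of the YTHDF1 peaks in coding-gene windows.

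The strongest YTHDF1 peak of the members lay at WNT9B, at 46851050 to 46851747 on chromosome 17. It was 3.78-fold with a −log10 q of 4.13, covered the annotated start and overlapped the 4.57-fold RNF2 peak there. WNT9B was the only member with a YTHDF1 peak of −log10 q of at least 4, 1 of 42 beside 4.12% of coding genes. WNT3A followed at 3.65-fold and 3.66, in a peak inside the gene, 48.7 kb from its start and within a 10.1 kb RNF2 peak. WNT4 had 3.12-fold and 2.85 at 0.141 kb from its start. WNT9A (3.23-fold, 2.49) and RSPO4 (3.23-fold, 2.49) had theirs at 0.856 kb from the start and across it. In DKK2 (3.14-fold, 2.49) the peak lay deep inside the gene, away from both Polycomb marks. FZD7 (3.06-fold, 2.27) and SFRP5 (2.98-fold, 2.07) had theirs on RNF2 and H2AK119ub. Of these 8 members, only WNT3A had an RNF2 peak of 10 kb or more.

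The remaining members with YTHDF1 were WNT1, WNT2B, WNT3, WNT5A, WNT5B, WNT7A, WNT7B, WNT8B, WNT10B, WNT16, FZD8, FZD9, DKK1, DKK4, SFRP1 and RSPO2, with strongest peaks from 2.68-fold at DKK1 to 2.95-fold. WNT5A had 4 YTHDF1 peaks, the most of any member, 3 of them within its 22.8 kb RNF2 peak. No YTHDF1 peak lay over WNT2, WNT6, WNT8A, WNT10A, WNT11, FZD1, FZD2, FZD3, FZD4, FZD5, FZD6, FZD10, DKK3, FRZB, SFRP2, SFRP4, RSPO1 or RSPO3. Among the 15 members with RNF2 of 10 kb or more, 6 had YTHDF1 (40.0%), and among the other 27, 18 had it (66.7%). Over all coding genes the same shares were 62.3% of 795 and 64.8% of 13573, and 27.4% of the genes without RNF2. The 15 and the 27 members had median lengths of 19.8 and 29.3 kb, and the part of length in their shares was not tested. Of the 15, WNT1 with WNT10B and WNT6 with WNT10A lie under 1 RNF2 peak each. FZD1, FZD2, FZD10, WNT6 and WNT10A had strong RNF2 and no YTHDF1 peak in the list. WNT1 and WNT10B, under the strongest RNF2 peak of all members, had 1 YTHDF1 peak each.

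Most YTHDF1 peaks over members lay on H2AK119ub, though not in every class, and fewer lay on RNF2. Of the 39, 19 overlapped an RNF2 peak (48.7%), against 19.5% of the YTHDF1 peaks in coding-gene windows, and 29 overlapped an H2AK119ub island (74.4%), against 38.1%. Because RNF2 and H2AK119ub cover more of these windows than of most genes, the part of this coverage in the higher overlap was not tested. Of the YTHDF1 peaks in coding-gene windows, 18.9% lay on both marks, 19.3% on H2AK119ub alone and 61.3% on neither. All 3 peaks at receptors lay on both marks. At ligands 13 of 27 lay on both, 10 on H2AK119ub alone and 4 on neither. At antagonists 2 of 6 lay on both, at DKK1 and SFRP5, and the 4 at DKK2, DKK4 and SFRP1 lay on neither. At R-spondins the peak of RSPO4 lay on both and the 2 of RSPO2 on neither. The share on neither was 66.7% in antagonists and in R-spondins, close to the 61.3% of coding-gene windows. All 10 peaks on H2AK119ub alone belonged to ligands, namely WNT2B, WNT3, WNT3A, WNT4, WNT7A, WNT8B, WNT9A and WNT9B. The ligands also held 27 of the 39 peaks. With few peaks in the other classes and a coding-gene share of 19.3%, this is not shown to be particular to ligands.

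Wild-type and knockdown cells were set side by side at the members. Wild-type YTHDF1 lay over 24 members and knockdown YTHDF1 over 0. The knockdown list begins at a −log10 q of 4.007 and that of wild-type cells at 1.502. At a minimum of 4 in both, 1 member (WNT9B) had a peak in wild-type cells and 0 in knockdown cells, and the wild-type peak of WNT9B, at 4.13, lay just above that minimum. The lists therefore do not show whether the signal fell at any member. The nearest knockdown peak was 320.8 kb from the window of RSPO4 and the next 370.4 kb from that of WNT8A.

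The annotated starts were then examined for the 29 members in the promoter table, which gives 1 start for most genes. The start lay in an RNF2 peak in 27 of 29 members (93.1%, against 63.0% of 15843 coding genes), in an H2AK119ub island in 28 (96.6%, against 70.3%) and in a YTHDF1 peak in 6 (20.7%, against 11.7%). The 6 were WNT7A, WNT9B, WNT16, FZD8, SFRP5 and RSPO4. A YTHDF1 peak came within 1 kb of the start in 10 of 29 (34.5%, against 19.8%), with WNT4, WNT5A, WNT9A and FZD9 added. The RNF2 peaks reached a median of 2.08 kb upstream and 2.74 kb downstream of the start, against 0.839 and 0.992 kb over coding genes whose start lay in RNF2. Their summits lay downstream of the start in 19 of 27 members (70.4%, against 51.7%). In 5 of the 29 the start given lies inside the RefSeq gene span, which begins farther out.

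The exceptions were WNT8A and WNT8B. The nearest RNF2 peak began 4.58 kb downstream of the start in WNT8A and 18.1 kb downstream in WNT8B, and reached the far end of both genes or ended just short of it. The start of WNT8A lay in an H2AK119ub island and that of WNT8B in none. The 2 RNF2 peaks of WNT8B lay in an island of 13.4 kb that also reaches SEC31B, and 1 of its YTHDF1 peaks overlapped RNF2 there. Of 3 members with 2 starts in the table, WNT5A had both in the same RNF2 peak. In WNT2B the outer start lay in a 3.51-fold peak of 0.937 kb and the inner start in the 20.1-fold peak of 14.8 kb. WNT5B was alike, with 3.60-fold over 1.11 kb at the outer start and 18.8-fold over 9.54 kb at the inner start.

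The promoters of 8 members are shown as examples of these patterns. They run from 250 bases before to 50 after the start (RefSeq, GRCh38.p14), 5′ to 3′ on the strand of the gene, with each CG dinucleotide in capitals. WNT1 (chr12:48978072-48978371, plus strand) and WNT6 (chr2:218859555-218859854, plus), whose peak WNT10A shares, had the strongest RNF2 at the start. WNT9B (chr17:46851333-46851632, plus), RSPO4 (chr20:1002262-1002561, minus), SFRP5 (chr10:97771950-97772249, minus) and FZD8 (chr10:35642247-35642546, minus) had a YTHDF1 peak over it. WNT7A and WNT16, with 40 and 20 CG dinucleotides, also had a YTHDF1 peak over the start and are not shown. WNT8A (chr5:138083783-138084082, plus) and WNT8B (chr10:100462759-100463058, plus) were the 2 whose start lay outside RNF2.
WNT1: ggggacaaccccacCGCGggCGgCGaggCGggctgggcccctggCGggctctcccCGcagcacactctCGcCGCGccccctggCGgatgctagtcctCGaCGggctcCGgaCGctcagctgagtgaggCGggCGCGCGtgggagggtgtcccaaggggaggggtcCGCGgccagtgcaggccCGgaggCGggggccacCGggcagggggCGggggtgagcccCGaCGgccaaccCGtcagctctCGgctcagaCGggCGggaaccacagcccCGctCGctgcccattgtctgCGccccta
WNT6: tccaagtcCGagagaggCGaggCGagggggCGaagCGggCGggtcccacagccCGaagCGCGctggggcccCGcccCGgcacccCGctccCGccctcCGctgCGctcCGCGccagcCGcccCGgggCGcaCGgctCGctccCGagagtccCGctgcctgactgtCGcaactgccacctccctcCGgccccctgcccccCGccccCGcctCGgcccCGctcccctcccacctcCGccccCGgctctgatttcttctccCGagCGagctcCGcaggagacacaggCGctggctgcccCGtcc
WNT9B: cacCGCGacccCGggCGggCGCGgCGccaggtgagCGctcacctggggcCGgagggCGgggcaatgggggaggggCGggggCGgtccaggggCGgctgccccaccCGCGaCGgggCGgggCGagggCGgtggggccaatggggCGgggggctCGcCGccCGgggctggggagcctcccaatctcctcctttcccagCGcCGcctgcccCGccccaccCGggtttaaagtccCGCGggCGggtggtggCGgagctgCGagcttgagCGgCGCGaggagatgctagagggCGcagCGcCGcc
RSPO4: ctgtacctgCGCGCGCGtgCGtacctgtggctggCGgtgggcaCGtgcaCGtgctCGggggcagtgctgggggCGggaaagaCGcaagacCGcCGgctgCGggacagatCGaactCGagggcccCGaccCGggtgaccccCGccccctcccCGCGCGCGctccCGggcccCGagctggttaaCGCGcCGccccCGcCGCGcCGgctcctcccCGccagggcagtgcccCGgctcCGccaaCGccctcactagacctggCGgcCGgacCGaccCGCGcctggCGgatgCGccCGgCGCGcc
SFRP5: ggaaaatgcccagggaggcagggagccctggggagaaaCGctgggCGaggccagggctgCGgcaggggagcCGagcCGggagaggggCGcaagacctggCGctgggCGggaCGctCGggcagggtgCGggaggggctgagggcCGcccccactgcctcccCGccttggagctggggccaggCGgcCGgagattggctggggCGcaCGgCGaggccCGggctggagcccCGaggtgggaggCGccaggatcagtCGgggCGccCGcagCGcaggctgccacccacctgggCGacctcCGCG
FZD8: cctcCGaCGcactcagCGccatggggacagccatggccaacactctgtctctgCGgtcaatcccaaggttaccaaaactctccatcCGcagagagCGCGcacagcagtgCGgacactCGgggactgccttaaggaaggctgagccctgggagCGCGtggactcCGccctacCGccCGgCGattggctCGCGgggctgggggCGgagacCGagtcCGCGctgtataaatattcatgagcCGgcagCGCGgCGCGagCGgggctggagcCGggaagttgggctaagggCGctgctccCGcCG
WNT8A: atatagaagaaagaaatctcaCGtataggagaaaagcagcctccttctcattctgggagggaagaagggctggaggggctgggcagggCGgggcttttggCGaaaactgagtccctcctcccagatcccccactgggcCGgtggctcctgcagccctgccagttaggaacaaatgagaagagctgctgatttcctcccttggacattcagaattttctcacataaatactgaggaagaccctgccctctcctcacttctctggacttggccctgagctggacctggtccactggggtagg
WNT8B: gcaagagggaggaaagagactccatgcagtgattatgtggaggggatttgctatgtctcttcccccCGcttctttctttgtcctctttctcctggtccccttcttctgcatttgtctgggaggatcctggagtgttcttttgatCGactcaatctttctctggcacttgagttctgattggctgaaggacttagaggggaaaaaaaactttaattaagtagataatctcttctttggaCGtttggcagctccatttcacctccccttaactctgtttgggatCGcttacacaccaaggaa

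The capitals show the difference between the last pair and the others. WNT8A and WNT8B held 4 CG dinucleotides each, whereas the other 6 held 34, 37, 38, 46, 28 and 31 in the order shown. Over the 27 members whose start lay in RNF2 the median was 30 (range 10 to 53), and over all 15843 coding promoters it was 22. Coding promoters with the start in RNF2 had a median of 28 and those outside it 6, so the members followed the pattern of coding genes as a whole. By class, the medians were 32 for ligands, 31 for receptors, 20 for antagonists and 28 for R-spondins. WNT9A had the most, at 53.

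Short motifs were counted on both strands of the same windows, none of which contains another. ATCAAAG, a form of the site bound by the TCF and LEF factors of the WNT pathway, was in 0 of 29 member promoters and in 1.96% of coding promoters. GGACT, a core of the m6A consensus on RNA, was in 14 of 29 (48.3%) and in 45.8% of coding promoters, close to the background. TATAAA was in 2 of 29, DKK1 and FZD8, and in 9.75% of coding promoters. A match is only a run of letters in this window.

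**Figure D5:**
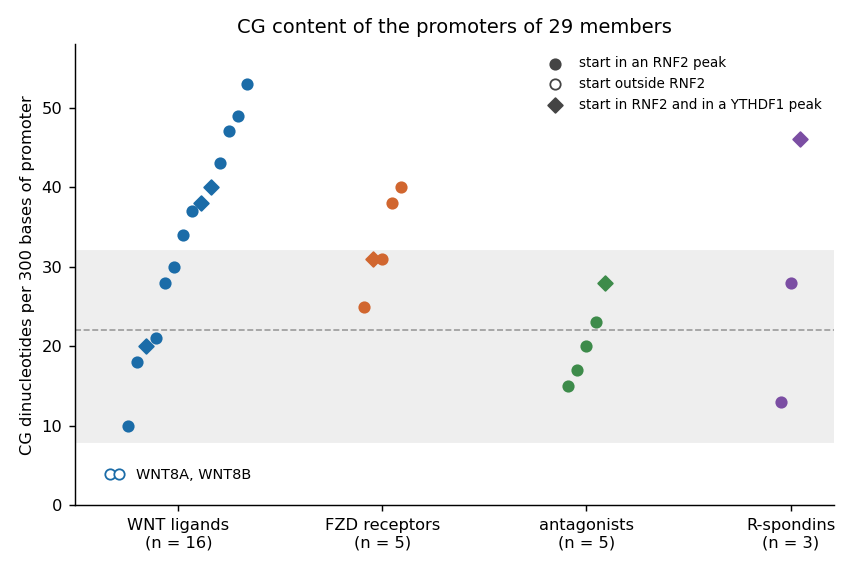
Number of CG dinucleotides in the 300 bases of promoter of the 29 members in the promoter table, by class. Filled points have their start in an RNF2 peak, open points do not, and diamonds also have their start in a YTHDF1 peak. The grey band and dashed line are the middle range (quartiles of 8 to 32) and median (22) over 15843 coding promoters. WNT8A and WNT8B, the open points, are lowest at 4.

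Other genes of the pathway, 51 in a list that holds none of the members, are given for comparison, with no test of the difference. RNF2 lay over 47 of 51 (92.2%, against 71.7% of all coding genes), H2AK119ub over 50 (98.0%, against 79.0%), wild-type YTHDF1 over 40 (78.4%, against 54.1%) and knockdown YTHDF1 over 0 (against 0.843%). An RNF2 peak of 10 kb or more lay over 3 of the 51, beside 15 of the 42 members and 3.97% of all coding genes. They were LEF1, a transcription factor of the pathway (52.8-fold, 28.0 kb), WLS, which carries WNT proteins to the cell surface (25.8-fold, 15.6 kb), and BCL9, a partner of beta-catenin (9.94-fold, 20.8 kb). The median RNF2 fold was 5.71 and the median share of the window under RNF2 4.29%, against 12.4 and 24.6% over the members. These genes are longer, with a median of 65.0 kb, and the part of length in their YTHDF1 share was not tested.

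By role, YTHDF1 lay over 6 of 6 co-receptors and receptor kinases, 5 of 5 R-spondin receptors and ligases, 3 of 5 genes of ligand processing, 6 of 8 other inhibitors, 8 of 12 cytoplasmic components, 6 of 8 nuclear components and 6 of 7 planar polarity genes. The share of all coding genes was 54.1%. The first 2 groups had the longest genes, with medians of 151 and 126 kb. Medians of the other groups ran from 20.4 to 67.4 kb, and the part of length in these counts was not tested. The strongest YTHDF1 peak of the list was at LRP6, the co-receptor gene, at 3.92-fold over its higher-coordinate end. It stood outside RNF2, since LRP6 had no RNF2 peak, but lay within an H2AK119ub island of 5.60 kb. DRAXIN (3.79-fold), AXIN1 (3.65-fold), NKD1 (3.65-fold), BCL9L (3.52-fold) and BCL9 (3.51-fold) followed. No RNF2 peak lay over LRP6, PORCN, which adds the lipid to WNT proteins, GSK3B, the kinase of the destruction complex, and SOSTDC1, an inhibitor. SOSTDC1 was also the only gene of this list without H2AK119ub. The gene of beta-catenin, CTNNB1, had RNF2 of 3.76-fold and no YTHDF1 peak.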

How the data were processed

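Peaks of YTHDF1, RNF2 and H2AK119ub were analysed from the 4 deposited lists, made from 8 immunoprecipitated and 4 input libraries in 6 groups of 2 replicates that the authors merged, per the series' design text. The tools named in the submitters' processing notes are SICER 1.1 and MACS2 2.1.0, Bowtie2 2.2.5, Trimmomatic 0.35, Picard and SAMtools 1.3.1, with build hg38. Which caller made which list is not given in the sources used here. In 3 deposited lists each peak has a fold enrichment (a ratio), a −log10 p, a −log10 q, a summit and a score capped at 1000. The deposited H2AK119ub list has a score of unstated scale, and all its island widths are multiples of 200 bp. Read depth is unknown.

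Peaks were joined to genes (RefSeq table of GRCh38.p14, the files' assembly) on the 22 autosomes, X and Y with Python 3.11.15, numpy 2.4.6 and pandas 2.3.3, and the overlap code was tested on simulated intervals. The strongest peak of a gene was that with the highest −log10 p, or score for H2AK119ub. Where a gene had 2 starts, the outer one was used. The members, classes, pathway list and rules were chosen with earlier results of these data known. All 42 members are named. Full values were given to the 6 strongest and 6 weakest for RNF2, the 8 strongest for YTHDF1 and the exceptions. For the pathway list they were given to the 6 strongest for YTHDF1 and to genes lacking a Polycomb mark. LEF1, WLS and CTNNB1 were named after their values were seen. Members share peaks and are not replicates, so no test was made. Alternatives varied window, overlap and threshold.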

Additional observations from a re-analysis of the deposited data

How the results depend on the processing

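Of 105 recomputed values, 94 stayed within 1.5 times the value reported, and the 11 that moved further all concern wild-type YTHDF1. The share of members with YTHDF1, 57.1% as reported, was 37.9% (11 of 29) within 2 kb of the gene start, 35.7% with the better-scoring 50% of the list and 2.38% at a −log10 q of at least 4. For ligands (73.7%) it was 37.5% at the start and 5.26% at the −log10 q of 4. With the better-scoring 50% it was 10% for receptors and 22.2% for antagonists, and at the −log10 q of 4 it was 0 for receptors, antagonists and R-spondins. Over all coding genes the share was 22.7% at the start and 39.8% with the better-scoring 50%. A peak within 1 kb of the start, in place of over it, raised YTHDF1 from 20.7% to 34.5% of 29 members. RNF2 and H2AK119ub shares, the medians of fold and width, and the overlap of YTHDF1 peaks with both marks stayed within 1.5 times in each alternative run. A −log10 q of at least 4 removes no RNF2 peak, since the list begins at 4.01. Wider windows could not change shares already at 100%, and stricter rules could not lower the knockdown count of 0. Such values could not move and are counted among the 94.

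No paired analysis was possible because the replicates were merged in each list, and for the same reason no replicate was left out. With the depth unknown, a gene without a YTHDF1 peak in the list is not shown to lack YTHDF1.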

Other observations

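Several intervals at members reached other coding genes, which were named after their positions had been seen. The 46.0 kb RNF2 peak over WNT1 and WNT10B also covered part of ARF3, an ARF family GTPase gene, and DDN. The 36.2 kb H2AK119ub island at the far end of WNT3A reached ARF1. At FZD8 both the 18.4-fold RNF2 peak and the YTHDF1 peak overlapped the predicted gene LOC124902528. At SFRP1 an island of 50.4 kb began in the gene and ran beyond its higher-coordinate end (41309473) to 41348800.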
